A study of Mus musculus with 6 samples.

Results

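Glycolysis and hypoxia response genes were examined in primary mouse lung fibroblasts (LFs) exposed to TGFβ. The group comprised 38 genes of 55364 listed, chosen by gene symbol: transporters of glucose and lactate, enzymes of glycolysis, lactate dehydrogenases and a pyruvate dehydrogenase kinase, the hypoxia-inducible factor (HIF) subunits with their regulators, and HIF targets. They matched 39 rows of the count table, because the symbol Aldoa stands for 2 Ensembl genes, 1 of which had 0 counts in every library. After the filter on low counts 37 genes were tested, and Car9, a carbonic anhydrase of the cell surface, was not.

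Libraries were made from 3 samples labelled WT and 3 labelled TKS5 KO, the scaffold protein Tks5 being encoded by Sh3pxd2a. All 6 cultures were kept for 24 h without serum with 10 ng/ml TGF-β1, so that every library came from treated cells and none from untreated ones. The study's text describes the mutant mice as Tks5+/- animals, heterozygous for an allele recombined by Cre under the CMV promoter in all tissues, and takes LFs from adult C57Bl6/J littermates at low passage. By that description the loss was neither complete nor specific to fibroblasts, and the labels do not say which library came from which animal. Libraries were primed at the poly(A) tail (QuantSeq), so that reads fell at the end of each transcript, and the totals ran from 1344507 to 2369882 counts. Levels are given as CPM (counts divided by the size of the library and set to a common scale) on library sizes scaled by the TMM method.

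The mRNA of Sh3pxd2a itself was 113 ± 16.5 CPM (SD, n = 3) in the WT libraries and 138 ± 11.1 (SD, n = 3) in the libraries labelled KO, a log2 fold change of 0.29 (SE 0.20, adjusted p = 0.249 by edgeR's quasi-likelihood test). The study reports, by Q-RT-PCR, less Tks5 mRNA in Tks5+/- LFs than in WT LFs, a reduction that the counts here do not show. The reads fell at the end of the transcript and not in the exon removed by Cre, so these counts do not measure that exon. Whether the altered allele changes the level at the transcript end was not tested, and every direction below rests on the labels. Summed markers of fibroblasts reached 14280 to 16010 CPM in WT and 17600 to 19840 CPM in the libraries labelled KO. Of 12 fibroblast markers tested, 4 were higher and 2 lower. Of 11 alveolar epithelial markers, 5, among them Sftpc and Sftpb, were at 0 throughout. All 11 summed to 22.5 to 46.7 CPM in WT and 32.2 to 64.4 CPM in the libraries labelled KO. Of these 11, 2 were tested and 1 was higher. The 17 macrophage markers stood at 376, 334 and 2036 CPM in the WT libraries against 136 to 150 CPM, so that WT replicate 3 stood apart. Of the 11 macrophage markers tested, 5 were lower and none higher. Ddx3y, a gene of the Y chromosome, lay at 77.9 to 94.0 CPM in WT and 10.7 to 13.7 CPM in the libraries labelled KO. Nnt, a mitochondrial transhydrogenase that differs between substrains of C57Bl6 mice, is listed in 2 rows with nearly the same counts, and the one given here had 30.2, 47.6 and 39.7 CPM in WT and 19.8, 10.5 and 9.72 CPM in the libraries labelled KO, a log2 fold change of -1.56 (SE 0.30, adjusted p = 0.000238). The labels give neither the sex nor the substrain of the animals, and both genes were named after their values were seen. The part of these differences in the results below was not tested.

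In glycolysis, glucose is taken up, phosphorylated, split and oxidised to pyruvate, which is either reduced to lactate or passed on to mitochondria. HIF is a pair of proteins, an oxygen-sensitive α subunit (Hif1a or Epas1) and Arnt. In the presence of oxygen, prolyl hydroxylases of the Egln family mark the α subunit, Vhl recognises the mark and the protein is degraded, and when oxygen is low the pair binds a short motif near many glycolytic genes and raises their transcription. The α subunit is thus controlled mainly as a protein, whereas the measurements here are of mRNA. In fibroblasts, glycolysis is known to increase when TGFβ drives their conversion to myofibroblasts.

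The core letters of the HIF motif are ACGTG and GCGTG. Both were searched on both strands, on which they read CACGT and CACGC, in the 250 bases before the start of each gene in the RefSeq promoters of GRCm38.p6. Matches may overlap, as in CACGTG, which counts on both strands. The sequences below are those of the 6 members with the largest increases and of Adm, a HIF target chosen after its values were seen because it was abundant and not called. They are written 5′ to 3′ in the direction of the gene, with matches in capitals.
Mgarp (chr3:51396548-51396797, reverse strand): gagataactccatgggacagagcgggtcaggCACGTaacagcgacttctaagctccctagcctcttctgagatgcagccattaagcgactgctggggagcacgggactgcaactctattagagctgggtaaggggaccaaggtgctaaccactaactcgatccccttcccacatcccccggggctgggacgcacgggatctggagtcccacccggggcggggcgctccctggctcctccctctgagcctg
Egln3 (chr12:54203875-54204124, reverse strand): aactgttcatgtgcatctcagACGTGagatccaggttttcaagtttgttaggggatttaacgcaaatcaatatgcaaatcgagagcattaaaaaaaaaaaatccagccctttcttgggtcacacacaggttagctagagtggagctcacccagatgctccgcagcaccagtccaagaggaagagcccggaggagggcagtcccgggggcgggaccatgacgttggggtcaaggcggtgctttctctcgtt
Bnip3 (chr7:138909507-138909756, reverse strand): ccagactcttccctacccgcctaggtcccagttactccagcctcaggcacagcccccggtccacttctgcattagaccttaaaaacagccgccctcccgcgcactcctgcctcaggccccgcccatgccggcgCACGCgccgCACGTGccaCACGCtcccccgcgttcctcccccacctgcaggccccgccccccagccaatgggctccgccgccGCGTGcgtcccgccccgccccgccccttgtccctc
Higd1a (chr9:121857797-121858046, reverse strand): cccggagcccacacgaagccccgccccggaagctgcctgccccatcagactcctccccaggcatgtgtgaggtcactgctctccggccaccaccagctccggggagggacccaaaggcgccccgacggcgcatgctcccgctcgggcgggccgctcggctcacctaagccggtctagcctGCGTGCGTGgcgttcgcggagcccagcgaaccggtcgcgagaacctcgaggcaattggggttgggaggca
Pdk1 (chr2:71872974-71873223, forward strand): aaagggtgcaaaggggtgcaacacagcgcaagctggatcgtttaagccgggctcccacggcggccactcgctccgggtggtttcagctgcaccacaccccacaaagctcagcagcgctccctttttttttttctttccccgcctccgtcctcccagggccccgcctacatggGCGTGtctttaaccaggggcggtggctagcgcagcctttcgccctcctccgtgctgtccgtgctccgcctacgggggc
Tpi1 (chr6:124814159-124814408, reverse strand): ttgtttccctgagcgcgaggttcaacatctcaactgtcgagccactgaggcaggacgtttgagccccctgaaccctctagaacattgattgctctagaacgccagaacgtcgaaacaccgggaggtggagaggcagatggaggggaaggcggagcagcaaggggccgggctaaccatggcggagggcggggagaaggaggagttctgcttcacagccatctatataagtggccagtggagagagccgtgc
Adm (chr7:110627407-110627656, forward strand): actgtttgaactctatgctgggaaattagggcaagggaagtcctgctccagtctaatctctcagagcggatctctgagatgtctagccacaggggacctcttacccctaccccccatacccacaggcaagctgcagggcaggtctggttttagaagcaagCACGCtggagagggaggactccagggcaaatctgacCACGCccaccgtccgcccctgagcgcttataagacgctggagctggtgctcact

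A match was present in 26 of the 34 members with a promoter in the table (76.5%), in 10431 of all 27025 promoters (38.6%) and in 4460 of the 7592 promoters of tested genes (58.75%). Among the members it was found in 14 of the 17 that were called higher and in 11 of 16 that were not called. Of the sequences shown, Bnip3 had 5 matches, Higd1a 2 that share bases, and Tpi1 none in this window. Adm had 2 matches. The motif is a description of the letters, without evidence of binding here. Bhlhe40, Bnip3l, Epas1 and Ndrg1 had no entry.

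Of the 37 members tested, 17 were higher in the libraries labelled KO (45.9%) and 1, Epas1, was lower, called where the adjusted p was below 0.05 and the levels differed 1.2-fold or more. The same rule called 4642 of 10346 genes, 44.9% of those tested, made up of 22.8% that were higher and 22.1% that were lower. The median log2 fold change of the members was 0.71 against -0.05 over all genes tested. In 20 members the 3 libraries labelled KO all lay above the 3 WT libraries, which held for 26.1% of all genes, and in 2 they all lay below, which held for 27.6%. No test was made of the list as a whole. Its members were chosen with earlier results of these data known, so these shares are a description and not independent support. With n = 3 in each arm, the smallest p that an exact permutation test of 1 gene can give is 0.1, and all members whose groups did not overlap reached it.

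**Figure D1:**
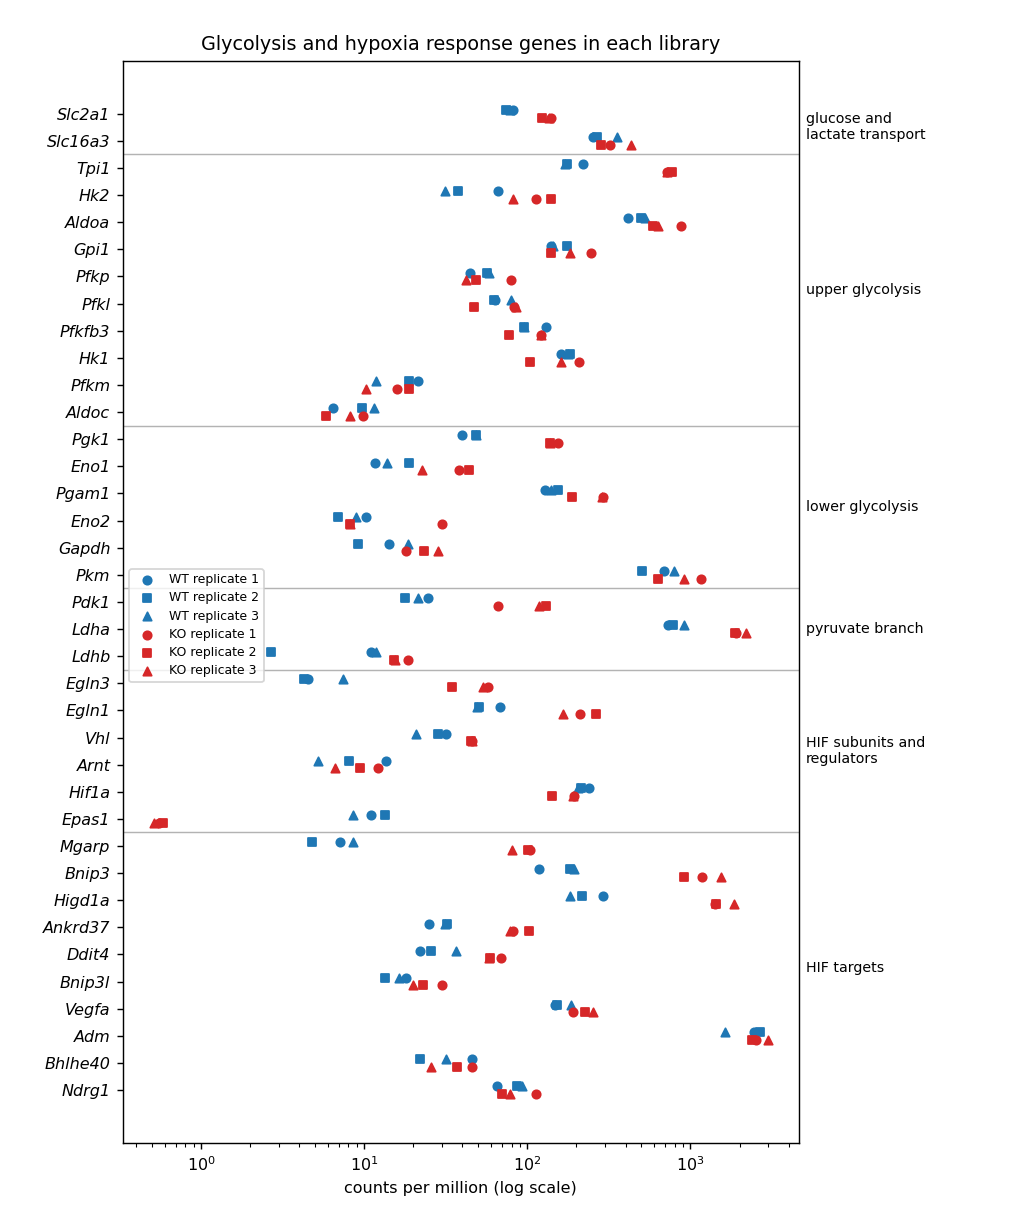
CPM (log axis) of the 37 tested members in each of the 6 libraries, grouped by role, with WT in blue and KO in red and a marker shape for each replicate. Mgarp, Egln3, Bnip3, Higd1a and Pdk1 show wide gaps between the colours, Epas1 shows the opposite gap, and Hk1, Pfkl, Pfkm, Pfkp, Pfkfb3 and Adm overlap.

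Of the 4 largest increases, 3 were in HIF targets of the mitochondrion. Mgarp, a mitochondrial protein with a glutamic acid-rich region, had 7.08, 4.82 and 8.53 CPM in WT replicates 1, 2 and 3 and 104, 101 and 80.3 CPM in the 3 libraries labelled KO. The lowest of the latter was far above the highest WT library. Its log2 fold change was 3.76 (SE 0.28, adjusted p = 1.76e-09), the largest of the members, and the mean CPM was 13.97 times that of WT. Bnip3, a receptor for the removal of mitochondria by autophagy, rose from 117, 183.5 and 194 CPM to 1184, 910.5 and 1537 CPM, by 2.87 (SE 0.25, adjusted p = 1.45e-08) on the log2 scale. Higd1a, a small protein of the respiratory chain, rose from 292, 216 and 183 CPM to 1413, 1425 and 1836 CPM, by 2.76 (SE 0.23, adjusted p = 1.03e-08). Neither gene had overlapping groups, and leaving out any 1 library left the log2 fold changes at 2.68 to 3.07 for Bnip3 and 2.62 to 2.96 for Higd1a.

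Ddit4, an inhibitor of mTORC1 under stress, had 21.9, 25.7 and 36.3 CPM in WT and 69.1, 59.1 and 57.8 CPM in the libraries labelled KO, a log2 fold change of 1.12 (SE 0.24, adjusted p = 0.000615). Ankrd37, an ankyrin repeat protein, had 25.1, 32.1 and 31.1 CPM and 81.2, 102 and 77.8 CPM, a change of 1.55 (SE 0.23, adjusted p = 9.14e-06). Both were separated between the groups. Ankrd37 overlaps the end of Ufsp2 on the opposite strand by 57 bases, and the 2 genes held 657 and 889 counts over all libraries, so that their reads may not be told apart where strand was not used in counting.

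The other HIF targets did not pass. Bnip3l, the paralog of Bnip3, had 15.9 ± 2.35 CPM (SD, n = 3) in WT and 24.3 ± 5.27 CPM in the libraries labelled KO, a log2 fold change of 0.61 (SE 0.29, adjusted p = 0.0872), with groups that did not overlap. Vegfa, the growth factor of blood vessels, had 148, 153 and 186 CPM in WT and 189.9, 225 and 252 CPM in the libraries labelled KO, also without overlap, and a change of 0.45 (SE 0.20, adjusted p = 0.0754). It passed without KO replicate 1, at 0.61 (adjusted p = 0.0248), and was 0.02 (adjusted p = 0.931) with library totals. After correction for transcript length both passed, Vegfa at 0.63 (adjusted p = 0.0151) and Bnip3l at 0.76 (adjusted p = 0.038). With library totals Bnip3l was 0.20 (adjusted p = 0.594). Adm, a vasodilator peptide and a common marker of hypoxia, had 2437, 2672 and 1627 CPM and 2512, 2376 and 2986 CPM. Its groups overlapped, and its log2 fold change was 0.23 (95% interval -0.23 to 0.68, adjusted p = 0.422). Ndrg1, a stress-induced growth regulator, differed by 0.10 (95% interval -0.37 to 0.57, adjusted p = 0.750) and Bhlhe40, a repressor of transcription, by 0.13 (95% interval -0.45 to 0.72, adjusted p = 0.724). Car9 was counted 0, 0 and 5 times in the WT libraries against 4, 5 and 4 times in the libraries labelled KO, too few for a test.

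Among the HIF subunits and regulators, 1 of the α subunits was called and the other was not. Epas1, which encodes HIF-2α, was counted 17, 25 and 23 times in the WT libraries and 1 time in each of the libraries labelled KO. This was 10.9, 13.4 and 8.53 CPM against 0.549, 0.585 and 0.512 CPM, and the log2 fold change was -4.16 (SE 0.63, adjusted p = 1.01e-05). Epas1 passed the filter on low counts through the WT libraries only, the group where it was high. The summed counts, 65 against 3, corrected for the library sizes, give a level 19.4-fold lower, with an exact 95% interval of 6.36 to 96.6 that covers counting error only. Epas1 is abundant in endothelial cells, and the 11 endothelial markers summed to 164 to 199 CPM in WT and 65.5 to 79.3 CPM in the libraries labelled KO, with 5 of 6 tested markers lower and none at 0. The part of endothelial cells in the difference was not tested. In RNA of whole cultures, fewer cells of a type and less RNA per cell cannot be told apart.

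Hif1a, which encodes HIF-1α, had 237.5, 212 and 204 CPM in WT and 192, 142 and 191 CPM in the libraries labelled KO. All 3 of the latter lay below the WT libraries, but the log2 fold change of -0.31 (SE 0.20, adjusted p = 0.217) did not pass. It depended on scaling, being -0.73 (adjusted p = 0.00669) with library totals, -0.59 (adjusted p = 0.0296) with the normalized counts of the authors, and 0.03 after correction for transcript length. Arnt, the common partner, had 8.91 ± 4.23 CPM and 9.36 ± 2.71 CPM (SD, n = 3 each), a change of 0.12 (SE 0.42, adjusted p = 0.831).

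Of the prolyl hydroxylases, Egln1 and Egln3 rose, as did the counts given to Vhl. Egln3 (PHD3) had 4.50, 4.28 and 7.42 CPM in WT and 57.6, 34.5 and 53.7 CPM in the libraries labelled KO, a log2 fold change of 3.10 (SE 0.32, adjusted p = 1.50e-07). All 3 libraries labelled KO, the group where it was high, were over the filter on low counts, against 2 WT libraries. Egln1 (PHD2), the main hydroxylase of HIF-1α, had 67.6, 50.3 and 48.9 CPM and 209.6, 265 and 164 CPM, a change of 1.94 (SE 0.23, adjusted p = 7.83e-07). Both are themselves known HIF targets, and in neither did the groups overlap. Egln2 (PHD1), outside the members and named after its values were seen, had a mean of 137 CPM in WT and 109 CPM in the libraries labelled KO. Its log2 fold change of -0.33 (adjusted p = 0.202) was not called, and with library totals it was -0.75 (adjusted p = 0.00542). Vhl had 31.5, 28.4 and 20.8 CPM and 46.1, 45.1 and 46.1 CPM, a change of 0.78 (SE 0.24, adjusted p = 0.0114), which was no longer called without WT replicate 3, at 0.61 (adjusted p = 0.0776), or with library totals, at 0.36 (adjusted p = 0.234). Its end lies within 350 bases of the end of 1700015O11Rik on the opposite strand. That gene was given almost as many counts as Vhl in each library, 370 against 409 in all. Which of the 2 genes the reads came from cannot be told apart here.

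**Figure D2:**
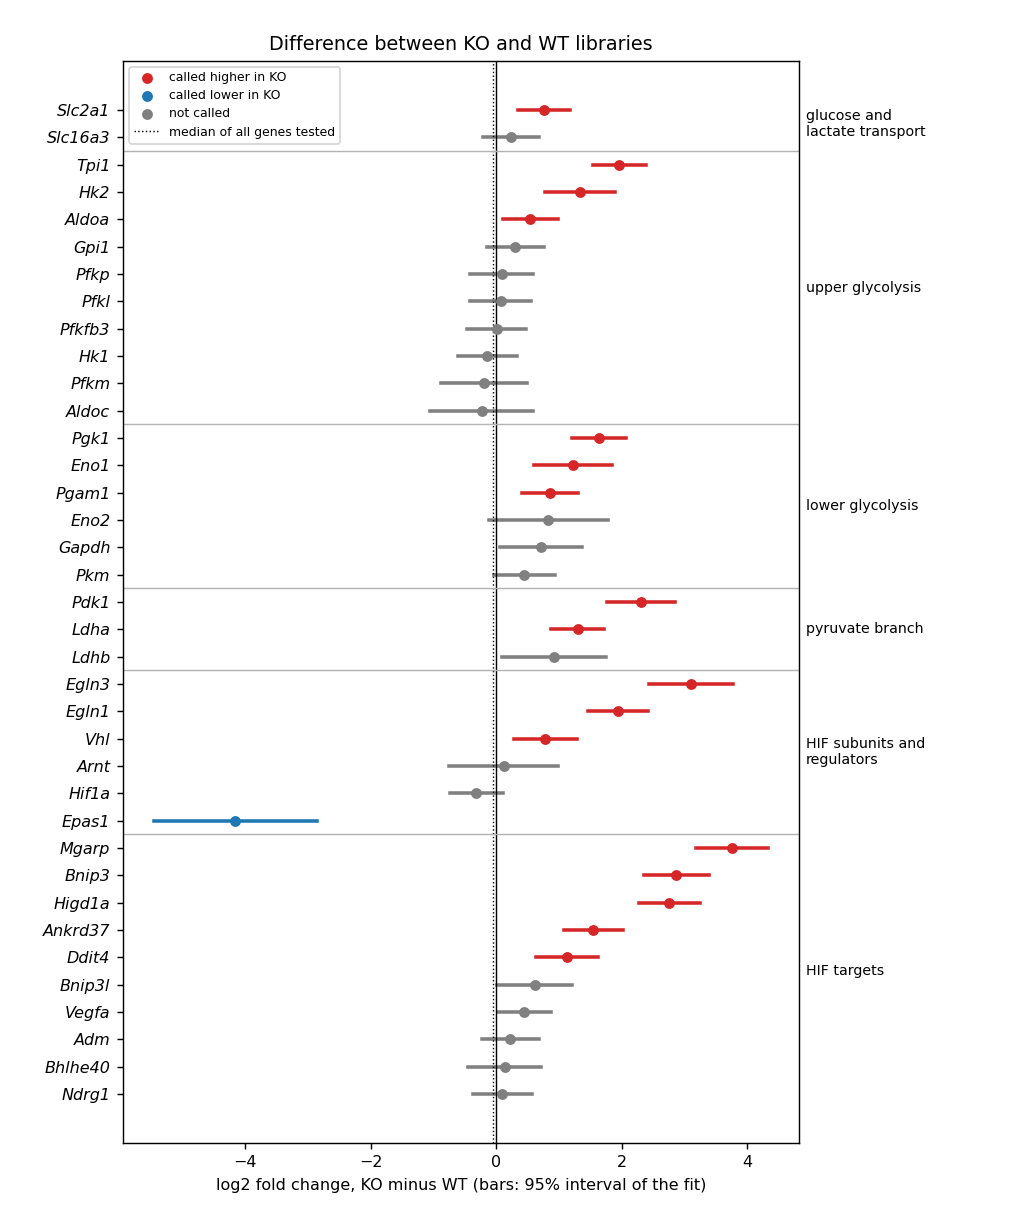
Log2 fold changes of the libraries labelled KO against WT for the 37 tested members, with 95% intervals of the fit, grouped by role (red called higher, blue called lower, grey not called, dotted line the median of all genes). The 17 members called higher have intervals above 0, as have Gapdh, Ldhb, Bnip3l and Vegfa, which were not called after adjustment, and the interval of Epas1 lies far below 0.

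In the branch at pyruvate, 2 of 3 members were higher (66.7%, against 22.8% of all genes). Pdk1, a kinase that inactivates pyruvate dehydrogenase, had 24.5, 17.7 and 21.5 CPM in WT and 66.4, 130.5 and 118 CPM in the libraries labelled KO, a log2 fold change of 2.31 (SE 0.26, adjusted p = 5.06e-07). Ldha, the lactate dehydrogenase subunit that favours lactate formation, had 732, 780.2 and 915.5 CPM and 1906, 1887 and 2197 CPM, a change of 1.30 (SE 0.20, adjusted p = 2.43e-05). The groups were apart in both. Ldhb, the other subunit, was scarce, with 10.9, 2.68 and 11.9 CPM in WT and 18.7, 15.2 and 15.3 CPM in the libraries labelled KO. Its change of 0.92 (SE 0.40, adjusted p = 0.0626) did not pass, and without WT replicate 3 it was 1.30 (adjusted p = 0.0277). Without WT replicate 2 it was 0.51 (adjusted p = 0.31) and after correction for length 0.53 (adjusted p = 0.305).

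Of the 2 transporters, that of glucose was called. Slc2a1 (GLUT1), which carries glucose into the cell, had 81.7, 74.4 and 77.9 CPM in WT and 139.9, 123 and 136 CPM in the libraries labelled KO, a log2 fold change of 0.77 (SE 0.20, adjusted p = 0.00331). Library totals as scaling lowered it to 0.35 (adjusted p = 0.155). Slc16a3 (MCT4), which exports lactate, had 254, 268 and 356 CPM and 319.9, 281.5 and 429 CPM with overlapping groups, a change of 0.23 (SE 0.22, adjusted p = 0.402). After correction for transcript length Slc16a3 reached 0.54 (adjusted p = 0.0467), and with library totals it was -0.19 (adjusted p = 0.47). A direct test of the difference between the 2 transporters was not made.

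Of the 10 enzymes of upper glycolysis tested, 3 were higher (30%, against 22.8% of all genes) and none lower. Their median log2 fold change was 0.08. Tpi1, triosephosphate isomerase, had 218, 176 and 169.8 CPM in WT and 716, 767 and 716 CPM in the libraries labelled KO, a change of 1.97 (SE 0.21, adjusted p = 1.77e-07). It ends in an overlap of 34 bases with Spsb2 on the opposite strand, and Spsb2 was given almost as many counts as Tpi1 in each library, 5062 against 5141 in all. Which of the 2 genes the reads came from cannot be told apart here. Hk2, the inducible hexokinase, had 65.7, 37.5 and 31.1 CPM and 114, 139 and 81.4 CPM, a change of 1.33 (SE 0.27, adjusted p = 0.000382) without overlap. Aldoa, the main aldolase, had 416, 494 and 528 CPM and 875, 589 and 630.0 CPM, a change of 0.54 (SE 0.21, adjusted p = 0.0410). It was the weakest call of the group and was lost in 11 of 20 alternatives, among them without WT replicate 1 (0.45, adjusted p = 0.153), without WT replicate 2 (adjusted p = 0.107), without KO replicate 1 (0.40, adjusted p = 0.116) and after correction for length (0.26, adjusted p = 0.343).

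The remaining 7 did not pass. The constitutive hexokinase Hk1 had 160.3, 181 and 178 CPM in WT and 208, 104 and 161 CPM in the libraries labelled KO, a difference of -0.14 (95% interval -0.61 to 0.33, adjusted p = 0.648). None of the phosphofructokinases, which catalyse the committed step, was called: Pfkl differed by 0.07 (95% interval -0.42 to 0.56), Pfkm by -0.19 (95% interval -0.87 to 0.50) and Pfkp by 0.09 (95% interval -0.42 to 0.59), and all 3 overlapped between the groups. Pfkfb3, which makes their activator fructose 2,6-bisphosphate, had 130.0, 94.7 and 95.3 CPM and 121, 77.2 and 122 CPM, a difference of 0.01 (95% interval -0.46 to 0.47). Gpi1, glucose-6-phosphate isomerase, differed by 0.31 (95% interval -0.15 to 0.76) and Aldoc, an aldolase of low level here, by -0.23 (95% interval -1.05 to 0.59). These intervals leave room for changes of up to 0.76 on the log2 scale upwards for Gpi1 and do not show that the genes were equal. Pfkl and Pfkp also end near a gene on the opposite strand, with 13.4% and 20.6% as many counts.

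Lower glycolysis held 6 tested members, of which 3 were higher (50%, against 22.8% of all genes), with a median log2 fold change of 0.85. Pgk1, phosphoglycerate kinase, had 39.9, 48.7 and 48.6 CPM in WT and 153, 138 and 138 CPM in the libraries labelled KO, a change of 1.64 (SE 0.21, adjusted p = 2.00e-06), with narrow groups far apart. Pgam1, phosphoglycerate mutase, had 129, 155 and 139 CPM and 292.5, 188 and 288 CPM, a change of 0.86 (SE 0.21, adjusted p = 0.00237), and with library totals it missed the threshold at 0.45 (adjusted p = 0.0930). Eno1, the common enolase, had 11.6, 18.7 and 13.7 CPM and 37.9, 43.9 and 22.5 CPM, a change of 1.23 (SE 0.30, adjusted p = 0.00199). Eno1b, a near-identical copy, held 132 counts against 278 of Eno1, and the sum of both was 24.3 ± 3.08 CPM in WT and 48.7 ± 13.5 CPM in the libraries labelled KO (exact two-sided permutation test, p = 0.1, n = 3 each).

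Eno2, the enolase of neurons, was carried by 1 library, with 10.3, 6.96 and 8.90 CPM in WT and 30.2, 8.19 and 8.19 CPM in the libraries labelled KO. Its change was 0.83 (SE 0.46, adjusted p = 0.143), -0.03 without KO replicate 1 and 1.17 (adjusted p = 0.0420) without KO replicate 3. Pkm, pyruvate kinase, had 689, 502 and 789 CPM and 1158, 637 and 910.4 CPM with overlap, a change of 0.45 (SE 0.23, adjusted p = 0.122) that passed without KO replicate 2 at 0.68 (adjusted p = 0.0256). Pkm was 0.28 (adjusted p = 0.448) without WT replicate 2 and 0.28 (adjusted p = 0.339) without KO replicate 1. After correction for GC content Pkm passed at 0.68 (adjusted p = 0.0179). In the normalized counts of the authors it was -0.13 (adjusted p = 0.709). Gapdh, often used as a reference gene, had 14.2, 9.10 and 18.5 CPM and 18.1, 23.4 and 28.1 CPM and a change of 0.71 (SE 0.31, adjusted p = 0.0672).

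The counts of Gapdh are a special case. It has 73 near-identical copies in the annotation, 63 of which held counts, 1450 in all against 217 on Gapdh itself, and it ends in an overlap of 68 bases with Iffo1, which held 244. Summed with its copies, Gapdh had 96.3 ± 12.02 CPM in WT and 193.8 ± 70.8 CPM in the libraries labelled KO (exact two-sided permutation test, p = 0.1, n = 3 each). Alone, it passed without WT replicate 3, at 1.01 (adjusted p = 0.0324), and without KO replicate 1, at 0.92 (adjusted p = 0.0327). Without WT replicate 2 it was 0.49 (adjusted p = 0.291) and after correction for length 0.36 (adjusted p = 0.363), and its level is uncertain. Leaving out the 7 members that shared at least 10% of their counts with a neighbour or copy (Tpi1, Ankrd37, Vhl, Eno1, Gapdh, Pfkl and Pfkp), a choice made after seeing the data, 13 of 30 members were higher (43.3%) and 1 lower, with a median of 0.58. Over all genes tested, 22.8% were higher and 22.1% lower.

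**Figure D3:**
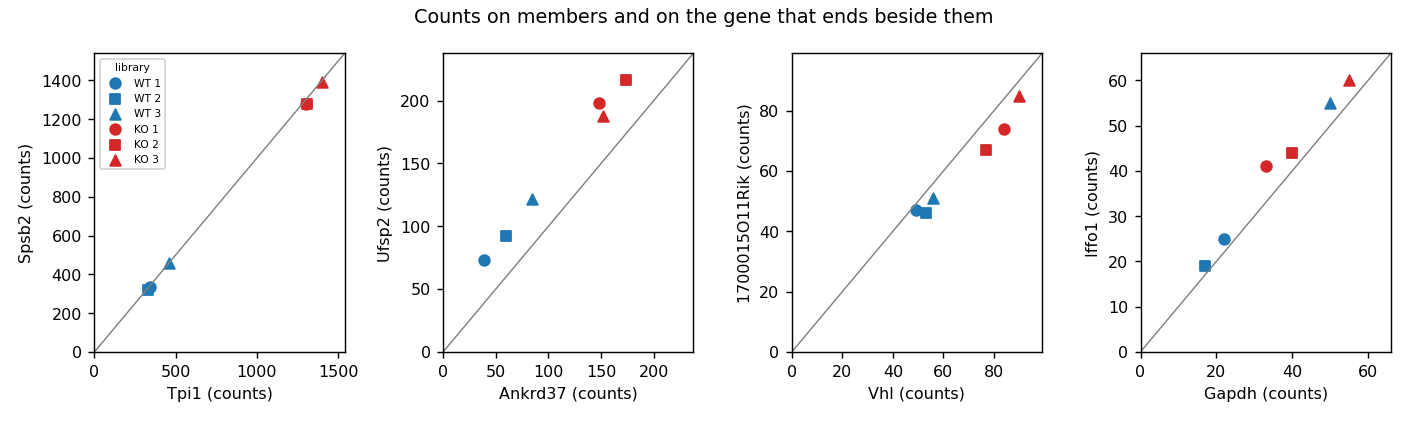
Raw counts in each of the 6 libraries (blue WT, red KO) of Tpi1, Ankrd37, Vhl and Gapdh on the x axis and of the gene that ends beside each on the opposite strand on the y axis, with the line of equality. Spsb2 follows Tpi1 along the line from 320 to 1390 counts, and Ufsp2 lies above the line at 73 to 216 counts.

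The calls were also examined under other scalings. Log2 fold changes fell with transcript length across 10339 genes (Spearman's rho = -0.42; this is a trend over genes, not over replicates). After correction for this trend, 19 members were higher and 1 lower. Of all genes, 20.3% were higher and 17.8% lower in this setting. With library totals, the median of all genes moved to -0.47 and 13 members were higher and 2 lower, the second being Hif1a, while 13.2% of all genes were higher and 38.1% lower. Of the 17 members called higher, 13 thus kept the call under library totals. WT replicate 3, which stood apart in the macrophage markers, was left out in turn, and 18 members were then higher and 1 lower. Of all genes, 20.2% were then higher and 18.0% lower. For 4 members (Aldoc, Ldhb, Epas1 and Egln3) all 3 libraries were over the filter in 1 group only. Of these, Epas1 was over it in WT libraries alone. Egln3 and Ldhb were over it in all 3 libraries labelled KO and in 2 WT libraries. Among the 33 members over it in both groups, 16 were higher (48.5%, against 22.8% of all genes) and none lower.

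**Figure D4:**
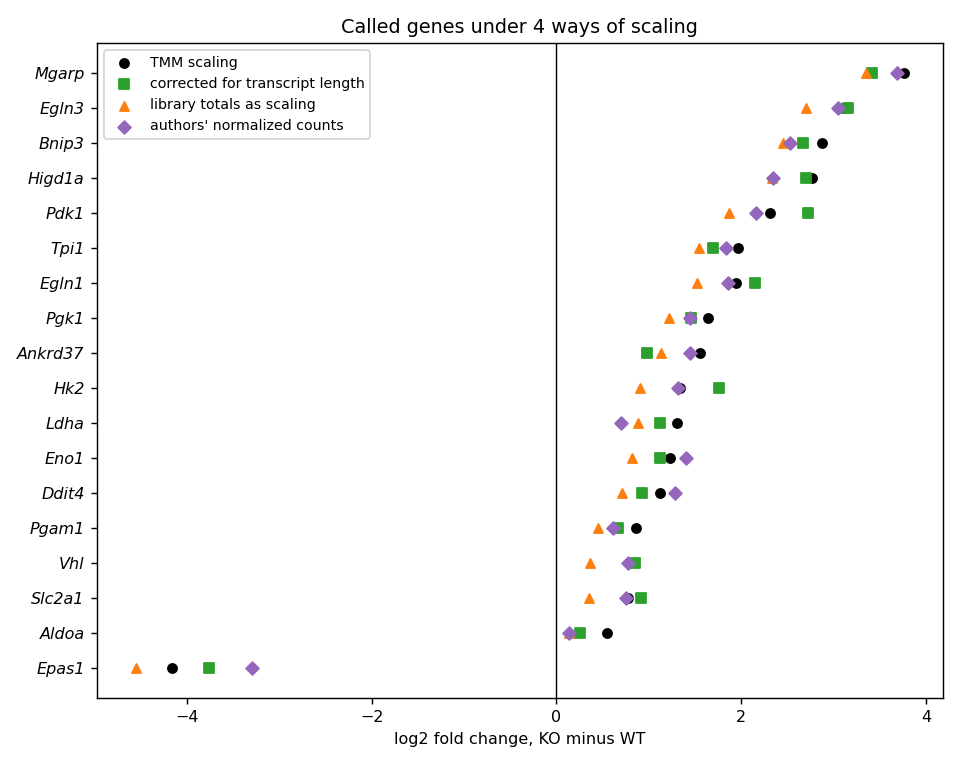
Log2 fold changes of the 18 called members under TMM scaling, after correction for transcript length, with library totals as scaling and in the normalized counts of the authors. All 18 keep their direction in the 4 settings, and Aldoa comes closest to 0, at 0.14 with library totals.

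Beyond the members, 4 lists of the surrounding pathways were read in the same fit. Reads shared with copies or neighbours were not searched for in these lists. Of 30 tested targets of HIF outside the group, 11 were higher and 4 lower (36.7% and 13.3%, against 22.8% and 22.1% of all genes), with a median of 0.43. Fam162a, a mitochondrial protein of hypoxic cell death, rose from 158 ± 13.5 CPM to 1123 ± 232 CPM (SD, n = 3), a log2 fold change of 2.83 (SE 0.22, adjusted p = 4.96e-09). Hilpda, an inhibitor of lipid breakdown, rose by 2.65 (SE 0.23, adjusted p = 1.15e-08) and Ccng2, an atypical cyclin, by 1.81 (SE 0.25, adjusted p = 5.37e-06). Lox, the enzyme that crosslinks collagen, went the other way, from 3315 ± 514 CPM to 963 ± 193 CPM, a change of -1.78 (SE 0.22, adjusted p = 1.53e-06).

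Among 13 tested genes of the HIF pathway, 4 were higher and 1 lower (30.8% and 7.69%, against 22.8% and 22.1% of all genes). The median was 0.17. The partners of Vhl in the ubiquitin ligase Eloc and Rbx1 rose by 2.23 (SE 0.25, adjusted p = 3.64e-07) and 1.07 (SE 0.21, adjusted p = 0.000219). Of the other partners, named after their values were seen, Elob had a change of 0.73 (SE 0.20, adjusted p = 0.00471), which after correction for length was 0.01 (adjusted p = 0.972) and with library totals 0.31 (adjusted p = 0.188), and Cul2 one of 0.02 (adjusted p = 0.964). Rbx1 stood at 0.65 with library totals. Siah1a, a ligase that degrades Egln proteins, rose by 2.15 (SE 0.35, adjusted p = 3.02e-05). Hif1an, the asparaginyl hydroxylase of the α subunits, had a change of -0.92 (SE 0.21, adjusted p = 0.00103). After correction for transcript length it was -0.44 (adjusted p = 0.0956) and no longer called.

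For the entry of pyruvate into mitochondria and the rest of glycolysis, 19 of 35 genes were tested, with a median of 0.40. Of these, 6 were higher and 2 lower (31.6% and 10.5%, against 22.8% and 22.1% of all genes). Mpc1 and Mpc2, which form the mitochondrial pyruvate carrier, rose by 1.50 (SE 0.38, adjusted p = 0.00248) and 1.21 (SE 0.23, adjusted p = 0.000200), and Pdhb, a subunit of pyruvate dehydrogenase, by 1.80 (SE 0.23, adjusted p = 1.64e-06). Pdp2, the phosphatase that reverses the action of Pdk1, had a change of -1.12 (SE 0.26, adjusted p = 0.00151). After correction for length these were 0.94 for Mpc1, 0.68 for Mpc2 and -0.68 for Pdp2, all still called. The related kinases Pdk2 and Pdk3, named after their values were seen, went different ways. Pdk2 had a change of -1.07 (SE 0.38, adjusted p = 0.0252) and Pdk3 one of 0.61 (SE 0.22, adjusted p = 0.028). With library totals Pdk3 was 0.21 (adjusted p = 0.479) and not called. In the pentose phosphate pathway and glycogen metabolism, 18 genes were tested, with a median of -0.12. Of these, 4 were higher and 7 lower (22.2% and 38.9%, against 22.8% and 22.1% of all genes). Tkt, transketolase, had a change of -1.59 (SE 0.22, adjusted p = 4.92e-06), Gaa, the lysosomal glucosidase, of -1.76 (SE 0.23, adjusted p = 2.79e-06) and Pygb, a glycogen phosphorylase, of -1.31 (SE 0.26, adjusted p = 0.000382), while Rpe, ribulose-phosphate epimerase, rose by 1.12 (SE 0.26, adjusted p = 0.00109), and by 0.69 with library totals.

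**Figure D5:**
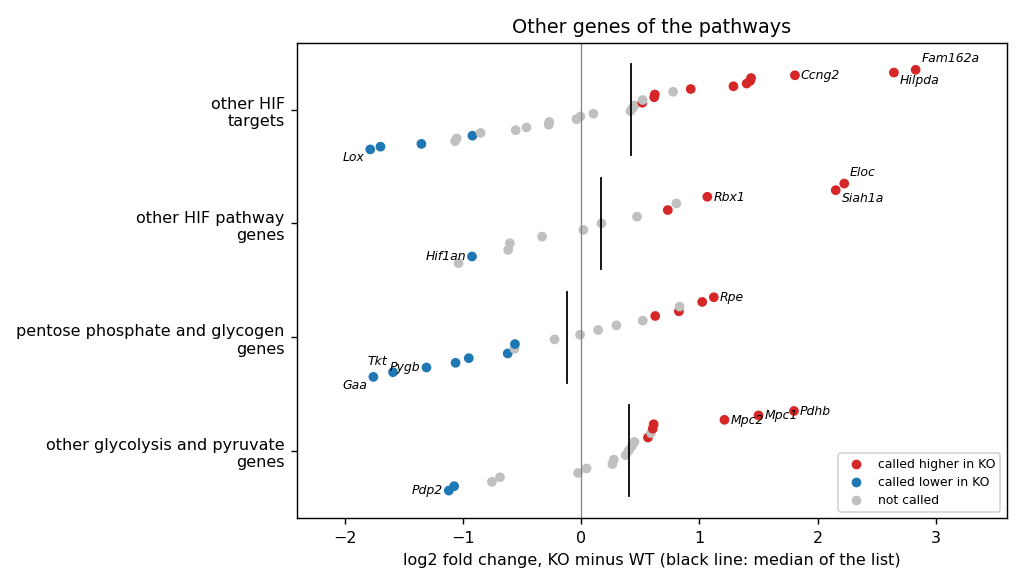
Log2 fold changes of every tested gene in the 4 pathway lists, with red for called higher, blue for called lower and grey for not called, a black line at the median of each list and the 4 genes of smallest adjusted p named. Fam162a and Hilpda lie furthest to the right, near the increase of Bnip3, and the pentose phosphate and glycogen list is the 1 list with a median below 0.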

How the data were processed

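Quant-Seq (QuantSeq 3′ mRNA) libraries of TGFβ-treated LFs were sequenced on an Ion Proton. Per the study's methods, the authors used Trim Galore for trimming and HISAT2, then Bowtie2, for alignment to GRCm38. They counted the reads on 3′ UTR regions and summed them per gene. The deposited counts are raw and whole. The authors' normalized counts (EDASeq, rounded, with the same sorted values in all 6 libraries) were used as a score, with limma on the log2 scale, in an alternative only. Whether counting kept to 1 strand is not given in the sources used here.

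Counts were tested with edgeR 4.0.16 in R 4.3.3 (filterByExpr, TMM, robust quasi-likelihood F test) on all 6 libraries and 10346 genes, with Benjamini-Hochberg adjusted p over all of them. A call needed both an adjusted p below 0.05 and levels that differed 1.2-fold. The filter kept genes with 4.89 CPM or more in at least 3 libraries, where CPM was taken on library totals without TMM scaling. Nothing in the labels says that the libraries came from separate animals, and p-values then measure the spread between these samples, which may be technical. Single values were compared by exact two-sided permutation tests over libraries. Intervals from counts cover counting error only.

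Symbols, coordinates and transcript lengths came from GENCODE M21 (GRCm38). Copies were transcripts with at least 95% identity over 300 bases near the end (BLAST 2.17.0), and neighbours were genes with exons within 350 bases of it. Both were searched for the members only. The members and lists were chosen with earlier results of these data known. All members are named, with the 4 genes of smallest adjusted p in each pathway list, cell type markers by list, and copies or neighbours that hold counts. Airway epithelial markers summed to 18.2 to 34.5 CPM in WT and 4.61 to 7.61 CPM in the libraries labelled KO, mesothelial markers to 27.8 to 38.6 and 6.14 to 22.5 CPM, alveolar epithelial markers to 22.5 to 46.7 and 32.2 to 64.4 CPM, and smooth muscle and pericyte markers to 4938 to 5909 and 6446 to 7279 CPM. Of 8 smooth muscle and pericyte markers tested, 2 were higher and 4 lower, so that the sum does not give the direction of each marker. The airway epithelial and mesothelial lists each had 2 tested markers, and 2 were lower in each.

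Alternatives were DESeq2 1.42.0, RLE, upper-quartile and library total scaling, the authors' normalized counts with limma 3.58.1, limma-voom, no filter, at least 10 counts in every library, loess corrections for GC content and length (span 0.5, prior count 2), a block for the replicate number, and the omission of each library. Other steps used scipy 1.17.1, pandas 2.3.3, matplotlib 3.10.9 and numpy 2.4.6.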

Additional observations from a re-analysis of the deposited data

How the results depend on the processing

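All called members kept their direction under every alternative in which they were tested. The count of members called higher was 13 to 20 under them, with 13 under library totals, 14 under the stricter filter (at least 10 counts in every library) and 20 after the corrections for GC content. The shares of all genes called higher were 13.2%, 23.9% and 19.4% to 23.8% in these settings. Members called lower were 2 with library totals, 2 with the authors' normalized counts (Epas1 and Hif1a in both) and 0 under the stricter filter, where Epas1 was not tested. Of all genes, 38.1%, 21.0% and 22.9% were lower in these settings. The median log2 fold change of the members was 0.29 with library totals, 0.56 under the stricter filter, and 0.51 to 0.77 when 1 library was omitted, lowest without WT replicate 2. With each library left out, 16 to 18 members were higher and 1 lower, and 3853 to 4595 of all genes were called. Of all genes, 18.6% to 22.6% were then higher and 16.2% to 19.4% lower. Over single members, 643 gene values kept their side of the threshold, 27 came to pass it, 15 lost it (Aldoa 11, Vhl 2, Slc2a1 1, Pgam1 1) and 51 changed sign, all of them in members that were not called. Without the members that share reads, an alternative chosen after seeing the data, 13 were higher, 1 was lower and the median was 0.58. The shares of all genes in the main fit were 22.8% and 22.1%. The replicate numbers did not pair the libraries (correlations of same-numbered deviations -0.001, -0.064 and 0.082). With the number as a replicate block, 18 members were higher and 1 lower, Gapdh (0.75, adjusted p = 0.0490) and Ldhb (1.01, adjusted p = 0.0357) passed and Aldoa (0.52, adjusted p = 0.0506) did not. Of all genes, 22.8% were higher and 22.3% lower with this block.

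With library totals as scaling, signs changed at -0.19 for Slc16a3, -0.10 for Gpi1, -0.34 for Pfkl, -0.32 for Pfkp, -0.41 for Pfkfb3, -0.29 for Arnt, -0.20 for Adm, -0.31 for Ndrg1 and -0.28 for Bhlhe40. With the authors' normalized counts, signs changed at -0.045 for Slc16a3, -0.055 for Pfkp, -0.19 for Pfkfb3, 0.038 for Aldoc, -0.13 for Pkm and -0.33 for Adm. After correction for GC content, signs changed at 0.040 for Hk1, -0.0094 for Pfkp and -0.060 for Pfkfb3. After correction for length, signs changed at 0.15 for Hk1, 0.033 for Hif1a and -0.15 for Adm. After correction for length and GC content, signs changed at 0.35 for Hk1, 0.090 for Pfkm and -0.30 for Adm. With the replicate block and GC correction, signs changed at 0.0021 for Hk1, -0.056 for Pfkp and -0.074 for Pfkfb3. With the replicate block and length correction, signs changed at 0.11 for Hk1, 0.027 for Hif1a and -0.12 for Adm. For Pfkfb3 the value was also -0.027 with upper-quartile scaling, -0.0065 with no filter on low counts, -0.046 under the stricter filter, -0.0064 with limma-voom and -0.0073 with the replicate block. Omitting 1 library at a time, the range was -0.34 to 0.12 for Hk1, -0.039 to 0.33 for Pfkl, -0.43 to 0.065 for Pfkm, -0.18 to 0.30 for Pfkp, -0.073 to 0.22 for Pfkfb3, -0.030 to 1.17 for Eno2, -0.19 to 0.52 for Arnt, -0.080 to 0.26 for Ndrg1 and -0.091 to 0.41 for Bhlhe40. The cause of these changes was not tested.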

Other observations

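Ratios of the counts of 2 members within a library do not depend on the scaling between libraries. They were chosen with the values known and are given without a test. These ratios were not corrected for the trend with transcript length, which can enter them. The first gene of the ratio has the shorter transcript for Bnip3, Ldha and Egln3, and the longer one for the others. For the hexokinases, Hk2 counts per count of Hk1 were 0.410, 0.206 and 0.175 in the WT libraries and 0.546, 1.34 and 0.506 in the libraries labelled KO, without overlap. Bnip3 per count of its paralog Bnip3l stood at 6.50, 13.7 and 11.9 in the WT libraries and 39.2, 39.9 and 77.0 in the libraries labelled KO. Ldha per count of Pkm was 1.06, 1.55 and 1.16 in the WT libraries and 1.65, 2.96 and 2.41 in the libraries labelled KO, and Pdk1 per count of Pkm was 0.0355, 0.0352 and 0.0272 in the WT libraries and 0.0573, 0.205 and 0.130 in the libraries labelled KO. Between the α subunits, Epas1 per count of Hif1a was 0.0461, 0.0630 and 0.0418 in the WT libraries and 0.00286, 0.00411 and 0.00267 in the libraries labelled KO, the latter from 1 count of Epas1 each.

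The targets Higd1a and Adm, both abundant, gave a ratio with little spread among replicates, as Higd1a counts per count of Adm were 0.120, 0.0809 and 0.112 in the WT libraries and 0.563, 0.5998 and 0.615 in the libraries labelled KO. Egln3 per count of Egln1 was 0.0667, 0.0851 and 0.151 in the WT libraries and 0.275, 0.130 and 0.327 in the libraries labelled KO, with overlap. Tpi1 per count of Aldoa was 0.525, 0.356 and 0.322 in the WT libraries and 0.818, 1.30 and 1.14 in the libraries labelled KO, with the reads of Tpi1 shared with Spsb2.

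Of the other targets of HIF, Ak4, an adenylate kinase of mitochondria, rose by 1.438 (SE 0.22, adjusted p = 2.13e-05) on the log2 scale and Insig2, a regulator of sterol synthesis, by 1.40 (SE 0.22, adjusted p = 2.63e-05). Pgf, placental growth factor, had a change of -1.70 (SE 0.35, adjusted p = 0.000477). The collagen prolyl hydroxylases P4ha1 and P4ha2 rose by 0.62 (SE 0.22, adjusted p = 0.0249) and 0.62 (SE 0.22, adjusted p = 0.0236), and with library totals neither was called, at 0.21 (adjusted p = 0.456) and 0.20 (adjusted p = 0.468). These genes were named after their values were seen. G6pdx, the first enzyme of the pentose phosphate pathway, had a change of -1.06 (SE 0.28, adjusted p = 0.00428) and Taldo1, transaldolase, of 1.02 (SE 0.27, adjusted p = 0.00524), also named after their values were seen. The groups of Taldo1 overlapped, and with library totals it was 0.59 (adjusted p = 0.0615) and not called.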
